A study of Oryza sativa with 19 samples.

Results

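Gene expression in the panicle of rice was compared with that in the shoot, in the japonica variety Nipponbare (NB), on 60-mer oligonucleotide arrays. The arrays came in a pair of designs, S1 and S2, which carried different probes apart from a shared set. The comparison used 7 of the 19 arrays of the series, chosen by their labels: 2 NB panicle arrays against 2 NB shoot arrays on S1, and 1 NB panicle array against 2 NB shoot arrays on S2. S1 was the main test and S2 gave support only, since its single panicle array has no spread of its own.

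The plants compared were untreated and of a single genotype. The fit also took in the other arrays of each design, for its estimate of spread and the choice of tested probes. These held NB root, NB callus and shoot of IR64, an indica variety. By the labels, NB root and IR64 shoot had 10 days of growth and callus a longer time. Panicles were taken from plants in an open field at the late-boot stage, and shoots from seedlings grown in soil in a greenhouse for 10 days by the labels, although the methods of the study give an older age. RNA of several plants was pooled, so an array holds an average over plants. The labels name the RNA sources panicle1 and panicle2, and shoot1 and shoot2, and replicate 1 has the same source on both designs. Nothing states that the sources were separate harvests, so the p-values measure only a spread between arrays, which may be technical. That spread was estimated over all arrays of a design, those of the other tissues and of IR64 included. The labels give a single extraction kit for both tissues, whereas the methods give Trizol for shoots and a column kit for panicles. Organ, developmental stage, place of growth and, if the methods hold, extraction changed together and cannot be told apart. On S2 the scan date changed with them, since the panicle array shared no date with a shoot array. On S1 the replicate 1 arrays of panicle and shoot also had separate scan dates.

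The panicle is the branched inflorescence of rice. At the late-boot stage it is still enclosed by the sheath of the flag leaf, while its florets complete their organs and pollen forms in the anthers. The seedling shoot consists mainly of leaf blades and sheaths, in which photosynthesis takes place. A locus can give several transcripts that differ in their ends or in the exons they keep, and a probe reports only the transcripts that contain its sequence. In bulk tissue, fewer cells of a type and less RNA per cell cannot be told apart.

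Signals were scaled to a median of 1000 on each array and channel, capped at 100000 and given as log2, so the scaled median is 9.97 and the cap is 16.61. Differences are panicle minus shoot on this log2 scale, and a probe was called when its adjusted p from limma was below 0.05. Probes have names but no genes: none of the array identifiers was in the reference gene table, so the identity of the tissues could not be checked against marker genes. The names give the kind of probe. AK probes stand for single full-length cDNA clones, COMM probes (ending in _C) for sequence common to the transcripts of a cDNA locus, SPEC probes (ending in _S and a number) for 1 transcript variant, E5 probes for further positions along a cDNA locus, END3TU probes for units known from 3' ends of transcripts, and CDS and END probes for predicted gene models. A locus name starts with R and the chromosome and ends in F or R for the strand. No gene structure or coordinate is used here.

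On S1 the replicate arrays of panicle resembled each other closely, and so did those of shoot. Across the probes of S1 the mean SD between replicates was 0.276 in panicle and 0.298 in shoot. It was wider in callus (0.519), which shares in the estimate of spread, and in shoot on S2 (0.445). Shoot replicate 2 stood apart in sensitivity: probes well above background made up 82.9% and 84.5% of the S1 probes on the panicle arrays, against 81.6% and 73.5% on the shoot arrays, and on S2 82.7% on the panicle array, against 78.9% and 66.4% on the shoot arrays.

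Panicle and shoot differed at a large share of the probes. On S1, 10116 of 36868 probes tested were called (27.4%), 6090 higher in panicle (16.5%) and 4026 lower in panicle (10.9%). The arrays of both tissues did not overlap at 25524 probes (69.2%), with the panicle arrays above the shoot arrays at 34.6% and below them at 34.6% of the probes, and all called probes were among them. The median change of the called probes was 3.82-fold for those higher in panicle and 3.12-fold for those lower. Large changes were more often towards the panicle: 495 called probes were over 16-fold higher and 227 were over 16-fold lower, and 237 against 109 passed 32-fold. The median difference of all probes was -0.05.

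The balance of directions depended on the scaling. Higher calls made up 60.2% and lower calls 39.8% with the median as the scale, while with the 75th percentile 5588 probes were called higher and 6183 lower (47.5% and 52.5%), and the median of all probes moved to -0.30. With the replicate number as a block, 15184 probes were called, 8366 higher and 6818 lower, and all 10116 calls were among them. Without panicle replicate 1, panicle replicate 2, shoot replicate 1 or shoot replicate 2, the count was 5420, 5368, 5786 or 5912. The replicate 2 arrays of panicle and shoot shared a scan date. Within that date the 6090 probes called higher had a median difference of 2.0, against 1.93 over all arrays, and the 4026 called lower had one of -1.65, against -1.64 over all arrays. These probes were called on the same arrays, so the values only describe their size.

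**Figure D1:**
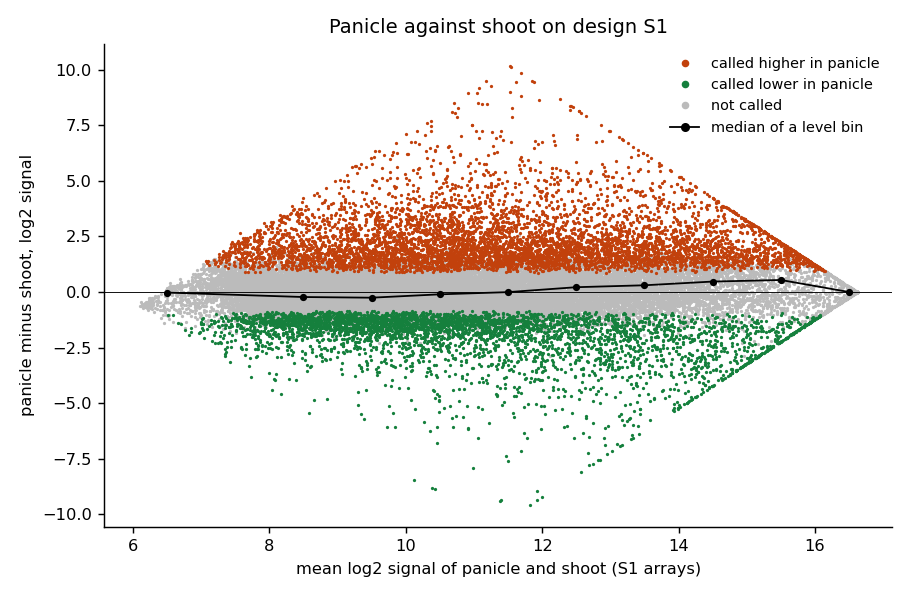
Panicle minus shoot difference (log2 signal, vertical axis) against the mean log2 signal of the 4 S1 panicle and shoot arrays (horizontal axis), 1 point per tested probe, with orange points called higher in panicle, green points called lower and gray points not called. The black line joins the median difference of each level bin, which was -0.25 at a level of 9 to 10 and 0.54 at 15 to 16, and the slanted edges on the right are set by the cap.

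The probes with the largest differences among those detected in both tissues lay between 13.76 and the cap in their bright tissue and between 7.92 and 10.45 in the other. The first higher probe of the ranking belonged to the 3' end of a predicted gene model, with 16.60 and 16.61 in panicle, against 9.11 and 9.11 in shoot. Its difference was 7.49 (SE 0.43, adjusted p = 6.04e-06 by limma).

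The next probe, E5_02953 of locus R03-00440F on the forward strand of chromosome 3, had 15.57 and 16.51 in panicle, against 8.43 and 9.54 in shoot. The difference of 7.06 (SE 0.44) was 133-fold, and the tissues were far from overlapping. Its mean was 16.61 in callus and 10.48 in root, so the low level in shoot was not shared by callus.

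R07-00484R_C had 15.79 and 16.13 in panicle, against 8.88 and 9.27 in shoot, a difference of 6.89 (SE 0.32). This locus was also bright in root (15.10) and callus (16.45), so that shoot alone was dim among the Nipponbare tissues. R10-00182R_C had 15.54 and 15.58 in panicle, against 8.82 and 8.73 in shoot, and was bright in root (15.37) but not in callus (8.56). R07-00095F_C showed a like order, with 16.17 and 16.16 in panicle, against 8.95 and 9.88 in shoot, a mean of 13.62 in root and 7.79 in callus.

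E5_09846 of locus R02-00520F was bright in panicle alone. It had 16.24 and 16.30 in panicle, against 9.43 and 9.55 in shoot, with means of 9.14 in root and 9.64 in callus. E5_01483 of locus R08-00641F had 15.33 and 15.24 in panicle, against 8.41 and 8.57 in shoot, and callus lay in between at 12.48. The remaining leading probes were R01-01160R_C, R02-00198R_C and a 3'-end probe of a second gene model, with differences of 6.17, 6.15 and 6.63. Their means were 12.41, 14.36 and 8.18 in root and 11.87, 12.38 and 12.18 in callus, so in each of them root or callus lay above shoot.

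On the shoot side, 3'-end probes of a pair of gene models led with differences of -7.78 and -7.57. R02-00881R_C had 8.97 and 9.11 in panicle, against 16.61 and 15.98 in shoot (difference -7.26, SE 0.50). R11-00477F_C had 8.12 and 8.12 in panicle, against 15.28 and 15.23 in shoot (difference -7.13, SE 0.47). Both loci were near the level of panicle in root (8.29 and 8.03) and callus (8.86 and 8.05), so among the Nipponbare tissues shoot alone was bright.

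R05-00809F_C and R08-00036F_C had the same order, with root and callus means between 6.80 and 9.49. R05-00809F_C had 9.61 and 9.62 in panicle, against 16.09 and 16.29 in shoot, and R08-00036F_C had 8.1 and 8.88 in panicle, against 14.93 and 15.18 in shoot. R02-00196F_C and R03-00876R_C differed from them. R02-00196F_C had 9.51 and 9.86 in panicle, against 16.61 and 16.61 in shoot, with 13.04 in root and 13.28 in callus, so panicle was the lowest tissue. R03-00876R_C had 10.01 and 9.36 in panicle, against 16.47 and 16.53 in shoot, with 14.72 in root and 11.44 in callus. The unit R07-E3TU-01144F, known from 3' ends, and another predicted gene model differed by -6.56 and -6.89.

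**Figure D2:**
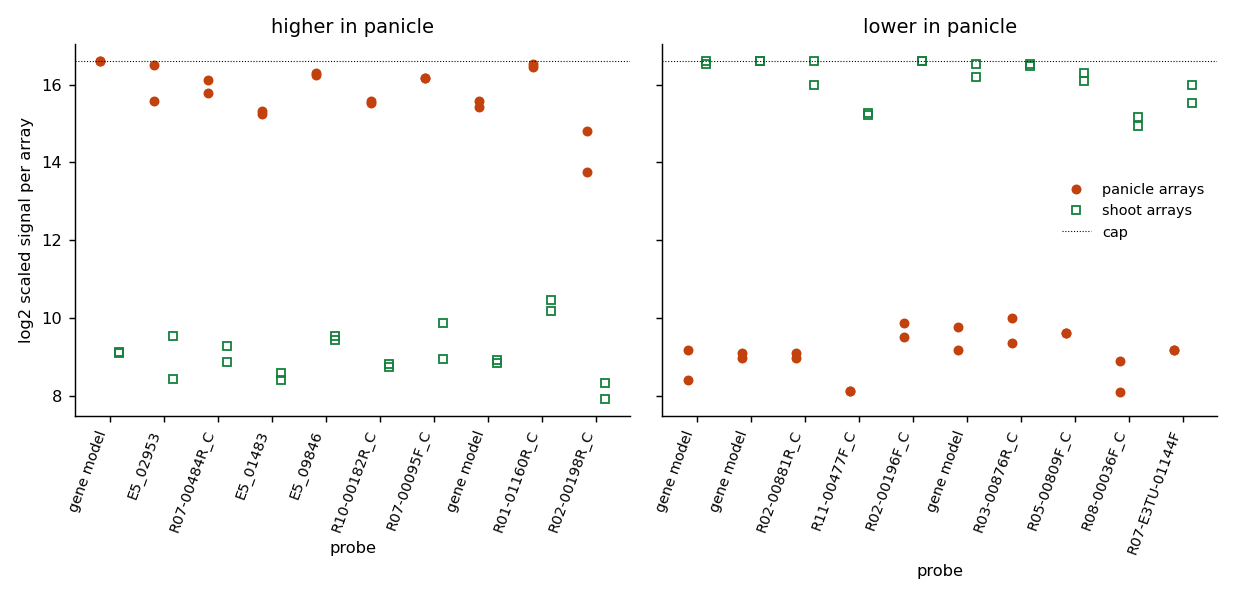
Log2 scaled signal of each S1 array (vertical axis) for the 10 probes with the largest difference in each direction among those well above background on all 4 arrays (horizontal axis), with filled circles for panicle, open squares for shoot and a dotted line at the cap. In the left panel every panicle value is above 13 and every shoot value is below 11, and in the right panel the order is the opposite.

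Some probes were well above background in one tissue and on no array of the other, so that only a lower bound of their fold can be given. The bound sets the mean of the bright tissue against the lowest signal of a probe well above background, or the probe's own signal where that was higher. The 5 leading probes in panicle, E5_05740 (locus R01-01346R), R01-00658R_C, R03-00398F_C, R06-00509R_C and R11-00399F_C, were all at the cap on both panicle arrays and thus at least 473-fold higher. E5_05740 had 6.12 and 6.77 in shoot and R11-00399F_C had 6.12 and 6.85, below the level of detection. Neither was above background on any root or callus array of S1. R03-00398F_C and R06-00509R_C were below background in root too, but callus had means of 14.65 and 10.59.

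In shoot, the unit R08-E3TU-00119R was at least 709-fold brighter, with 7.17 and 6.90 in panicle, against 16.61 and 16.61 in shoot. E5_12440 (locus R12-00351F) was at least 661-fold brighter in shoot, with 7.30 and 7.18 in panicle, against 16.61 and 16.61 in shoot. For R03-E3TU-01960F the bound was 489-fold, for the 3' end of a further predicted model 471-fold, and for E5_10196 of locus R03-00354R 224-fold. E5_10196 had 7.11 and 6.92 in panicle, against 15.24 and 14.66 in shoot. With normexp background correction E5_10196 differed by -5.56, short of its bound of -7.81, and E5_05740 by 9.89, beyond its bound of 8.89. The bounds above and below therefore hold for the median-scaled signals only. All 30 probes named so far from S1 kept their call under the 75th percentile, normexp background correction and the replicate block. None changed direction when a panicle or shoot array was left out. They were picked for their large differences on these same arrays, so this only describes them.

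Over the whole design, detection was more often lost in shoot than in panicle. On both panicle arrays and no shoot array of S1, 1754 probes were well above background, and 771 of them were called higher. Over all tested S1 probes 16.5% were called higher and 10.9% lower. Choosing probes by detection on these same arrays set the direction of their calls, here and in the shoot set below. Of the 1754, 1054 were detected on both root arrays and 1067 on both callus arrays, while 147 were on no root or callus array. On both shoot arrays and no panicle array, 288 probes were detected, 220 of them called lower, 62 on no root or callus array, 82 on both root arrays and 59 on both callus arrays. These counts followed the sensitivity of the arrays: between panicle replicate 1 and shoot replicate 1, 2420 probes were detected on the panicle array alone and 1875 on the shoot array alone, whereas between panicle replicate 1 and shoot replicate 2 the numbers were 4811 and 856. Without shoot replicate 1, the probes of panicle alone numbered 4041. Without shoot replicate 2, panicle replicate 1 or panicle replicate 2, those of shoot alone numbered 1099, 492 or 681.

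On S2, 1438 of 36117 probes were called (3.98%), 847 higher in panicle (2.35%) and 591 lower (1.64%). The median fold was 15.4 for the higher and 15.7 for the lower calls. S2 had a single panicle array and also a wider spread, with a mean SD between shoot replicates of 0.445, against 0.298 on S1. The part of each in these folds was not tested. The replicate block gave 7458 calls, 4771 higher and 2687 lower, while without shoot replicate 1 or shoot replicate 2 only 140 or 89 were left. The leading higher probes detected on all arrays of both tissues, and not at the cap or saturated in panicle, were R02-E3TU-00909R, with 16.41 in panicle, against 9.04 and 8.85 in shoot, E5_11162 of locus R02-00520F, with 16.40 against 8.78 and 9.60, and R07-00107F_C, with 16.06 against 8.86 and 9.46. R02-E3TU-00909R was also bright in root (16.09), whereas R07-00107F_C was below background on every root and callus array of S2.

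Among S2 probes detected on all arrays of both tissues and not at the cap or saturated on both shoot arrays, R02-E3TU-00136F led the lower side. It had 7.72 in panicle, against 16.58 and 16.21 in shoot (difference -8.67, SE 0.56, adjusted p = 0.00312 by limma). R01-E3TU-02247F differed by -7.75 and R04-E3TU-00861F by -7.69. R01-E3TU-02247F had an adjusted p of 0.0511 without shoot replicate 1 and 0.0623 without shoot replicate 2, and R04-E3TU-00861F had one of 0.0577 without shoot replicate 2.

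Several of the leading loci carried many probes over the designs, which measure different stretches of the same transcripts. R03-00440F had 9 COMM and E5 probes, all called higher, with differences of 5.87 to 7.06, except that E5_02674 was not above background in shoot and was higher by at least 6.94. On S1, R03-00440F_C had 14.42 and 15.43 in panicle, against 7.68 and 8.65 in shoot, and on S2 the lowest of the panicle values was 14.61. Panicle and shoot overlapped at none of these probes.

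R02-00520F had 10 such probes, all called higher as well. The 7 that were above background in shoot differed by 5.05 to 8.07, and E5_12375, R02-00520F_C and E5_04591, which were not, by at least 8.63, 7.95 and 6.09. E5_12375 of R02-00520F had 16.34 and 16.36 in panicle, against 6.13 and 7.65 in shoot, while E5_03306 had 15.42 and 15.85 in panicle, against 10.60 and 10.28 in shoot. The panicle values of the probes of R02-00520F lay between 13.60 and the cap, and the shoot values between 6.13 and 10.65, with those of 3 probes below background.

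The 9 E5 probes of R01-01346R were at the cap on every panicle array and were all called higher. The 5 that were above background on a shoot array had differences of 4.28 to 8.43, which the cap makes lower bounds. E5_05740, E5_06210, E5_07996 and E5_11157 were below background in shoot and were higher by at least 8.89, 8.52, 8.55 and 8.55. The common probe of the locus, R01-01346R_C on S2, was at the cap in panicle, against 16.01 and 14.64 in shoot, and was not called (difference 1.28). The tissues did not overlap at this probe, but the cap left little room between them.

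R08-00641F had 10 COMM and E5 probes and a variant probe, all with positive differences, of 2.90 to 6.79, and 3 of those on S2 were not called. In shoot the probes of R08-00641F spread from 8.09 to 12.90, while in panicle the COMM and E5 probes lay between 13.01 and 15.50 and the variant probe, from a clone of the panicle library, was at the cap. R03-00354R was the reverse, with all 10 probes below 0, of which 1 on S1 and 1 on S2 were not called. The 7 above background in panicle had differences of -1.85 to -6.07. E5_09272 of R03-00354R had 5.97 and 5.98 in panicle, below background, against 14.96 and 14.62 in shoot, which with the panicle at its bound is a difference of -7.65 or beyond. At R12-00351F, 2 S2 probes differed by -6.63 and -6.96. E5_11153, R12-00351F_C and E5_12440 of R12-00351F were below background in panicle, and their bounds were -9.58, -9.06 and -9.37.

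R03-00398F did not follow this. Its common probe was at the cap in panicle and below background in shoot, but the other 3 probes of the locus were not called: E5_00063 had 8.83 and 9.11 in panicle, against 7.76 and 8.25 in shoot, E5_01000 had 9.93 and 11.22 in panicle, against 11.86 and 11.40 in shoot, and E5_01335 on S2 had 11.67 in panicle, against 12.79 and 11.67 in shoot. A probe at the cap therefore stood beside 3 probes of its own locus with small differences of either sign.

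Over 954 loci with 8 or more COMM and E5 probes tested, 207 had every difference above 0, 151 had every difference below 0 and 590 had differences on both sides of 0. A call was present at 524 of these loci, and calls in both directions at 21. The median SD of the difference among probes of a locus was 0.53. At 787 loci with 3 or more probes on each design, the locus medians on S1 and S2 correlated with r = 0.88, a description across loci that share RNA sources. Of 79 loci with a median above 2 on S1, 78 were above 0 and 57 above 2 on S2, and of 30 loci below -2 on S1, 30 were below 0 and 25 below -2 on S2. Over all 3510 loci with a tested probe on both designs, r was lower, at 0.61, and 49.2% had a positive S2 difference. Of 641 such loci called higher on S1, 530 had the same sign on S2, 63 were called higher there and 2 lower. Of 409 called lower on S1, 355 had the same sign on S2, 56 were called lower there and 2 higher.

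At a few loci the direction turned along the probes. Names of COMM and E5 probes end in a number that orders the probes of a locus, although the sources used here do not say what it counts or from which end. The examples that follow were chosen after their values were seen. At R03-01136F, E5_00119 (number 1) had 11.74 and 11.43 in panicle, against 13.77 and 13.19 in shoot, and R03-01136F_C (number 21) had 9.98 and 9.97 in panicle, against 13.37 and 12.69 in shoot, and both were called lower (-1.90 and -3.06). E5_08561 (number 452) of R03-01136F had 12.23 and 12.66 in panicle, against 8.55 and 8.56 in shoot, and was called higher (3.89). The 7 S2 probes of R03-01136F from number 352 to number 512 differed by 1.75 to 3.80, and 5 of them were called higher.

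R10-00182R, whose common probe (number 634) was among the leading probes above, showed the same kind of turn. E5_00032 (number 1) of R10-00182R had 11.67 and 11.70 in panicle, against 12.73 and 13.17 in shoot, and was called lower (-1.27). E5_03353 (number 222) and E5_04270 (number 283) of R10-00182R were called higher by 2.48 and 2.05, and E5_04980 (number 323, on S2) had 1.72 and was not called. Toward the other end of R10-00182R, E5_08185 (number 443) differed by 3.91 and E5_09629 (number 483, on S2) by 4.58, while E5_05876 (number 363) and E5_06890 (number 403), both on S2, had differences of 0.33 and -0.55 that were not called. At R02-00385F the turn ran the other way: E5_01302 (number 80) had 16.61 and 16.49 in panicle, against 14.09 and 14.66 in shoot, a difference of 2.17, and R02-00385F_C (number 397) had 11.46 and 11.42 in panicle, against 13.84 and 14.12 in shoot, a difference of -2.54. At R05-00715F, E5_00480 (number 31) was called lower (-1.91) but had 5.87 and 5.87 in panicle, below background. In shoot it had 7.73 and 7.84, and only 1 of these arrays was above background. Its difference was -0.65 with the panicle at its bound and -0.39 with normexp, so no least size can be given. E5_08399 (number 448) of R05-00715F was called higher but was below background in shoot, with 6.43 and 7.36 there, and its difference was 1.74 at the bound and 0.92 with normexp.

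**Figure D3:**
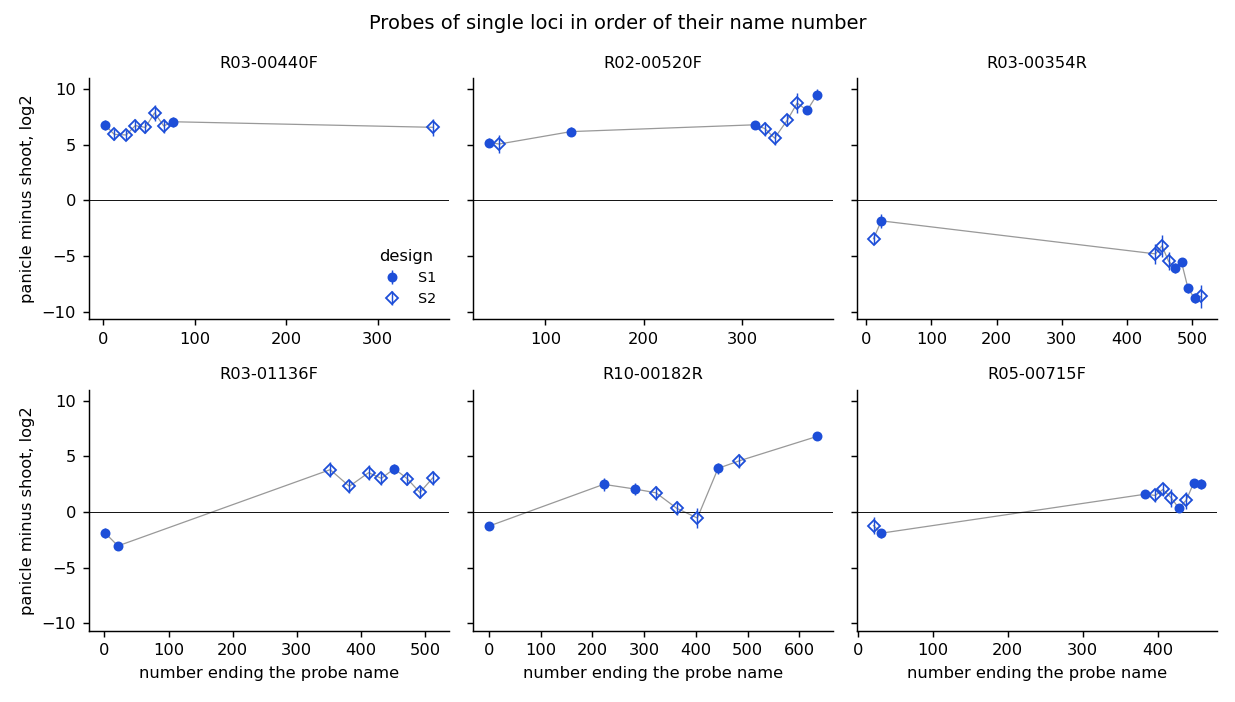
Panicle minus shoot difference (log2, vertical axis, bars are SE) of the COMM and E5 probes of 6 loci against the number that ends the probe name (horizontal axis), with filled circles for S1 and open diamonds for S2. The upper loci have differences of a single sign, and at the lower loci the probes of the lowest numbers are below 0 and most of the later probes above 0. At R05-00715F these lowest probes were below background in panicle and, apart from E5_00480 on 1 shoot array, in shoot.

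The number in the name also went with the share of calls over the design. Among E5 probes of S1, 12.0% of 815 probes with numbers of 1 to 100 were called higher and 12.5% lower. From 501 to 600, 27.8% of 709 probes were called higher and 8.18% lower. The bins between them had 12.3%, 19.6%, 21.2% and 26.7% called higher, in the order of the number, so the share of higher calls grew along it while the median signal stayed between 10.7 and 11.3. On S2 the share of higher calls among E5 probes was 1.80% in the first of these bins and 6.01% in the last. For COMM probes of S1 the shares were 23.1%, 20.4%, 24.4%, 28.7%, 30.0% and 29.3%, not in the order of the number throughout.

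Within loci the trend was small. Between probes of 1 locus at least 200 apart in number, the difference was larger at the high number by a median of 0.20 on S1 (570 loci, positive at 56.1%) and 0.24 on S2 (603 loci, positive at 59.7%). With normexp correction these medians were 0.18 and 0.11. Whether the position of a probe, RNA quality or the amplification of the RNA takes part in this was not tested.

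Transcript variants of a locus could be compared with the common probe of the same locus on the same array. In 835 pairs on S1 the difference of the variant probe was set against that of the common probe. This asks whether the variant probe changed between the tissues to another extent than that common probe. The common probe is a single probe and need not stand for the whole locus. SPEC probes were also dimmer, with a median level of 10.2 against 11.5 for COMM probes. The part of the level in these shifts was not tested. The fit called 169 pairs (20.2%): 43 with the variant more to the panicle side (5.15%) and 126 with the variant more to the shoot side (15.1%), and the median over all pairs was -0.22. In 90 of the called pairs only the common probe was called in its own right, in 39 only the variant probe, in 13 both in the same direction, in 9 both in opposite directions and in 18 neither. With the replicate block 289 pairs were called. Without panicle replicate 1, panicle replicate 2, shoot replicate 1 or shoot replicate 2, the count was 65, 65, 59 or 60. These alternatives were added after the data had been seen.

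The widest shift to the panicle was at R01-00237F. The variant probe R01-00237F_S2, named after a clone of the panicle library, had 12.09 and 12.60 in panicle, against 6.93 and 7.48 in shoot, while the common probe had 12.25 and 11.56 in panicle, against 12.80 and 12.55 in shoot. The variant minus common difference was 5.91 (SE 0.58, adjusted p = 0.000823 by limma). The variant probe was not above background on either shoot array, and at its bound the shift was at least 5.39. R02-00797F_S1, from a callus clone, had 10.87 and 11.49 in panicle, against 6.07 and 6.89 in shoot, beside a common probe that was not called, and was also below background in shoot. Its shift was at least 3.16, with a fitted value of 4.40 (SE 0.52). R03-00062R_S1 had 14.09 and 14.52 in panicle, against 9.76 and 9.94 in shoot, with a shift of 3.58 (SE 0.44).

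Shifts to the shoot included loci where both probes were called, in opposite directions. R03-00854R_S1, from a clone of the green shoot library, had 12.90 and 12.26 in panicle, against 14.09 and 14.09 in shoot, while its common probe had 12.83 and 13.79 in panicle, against 10.56 and 10.96 in shoot (shift -4.06, SE 0.68). At R01-00450R a pair of variant probes did so against 1 common probe, which had 9.61 and 9.82 in panicle, against 7.48 and 7.35 in shoot, below background. R01-00450R_S1 had 12.54 and 11.83 in panicle, against 15.04 and 14.76 in shoot, and R01-00450R_S3 had 9.12 and 8.59 in panicle, against 11.41 and 10.85 in shoot, with fitted shifts of -5.02 and -4.58 that share the common probe. With the common probe at its bound in shoot, the shifts were -4.65 and -4.21 or beyond.

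R10-00379R_S1 had 9.03 and 9.34 in panicle, against 12.13 and 12.76 in shoot, beside a common probe called higher (shift -4.71, SE 0.34). The largest value, -6.17 at R10-00443R_S1, rested on shoot replicates of 11.27 and 14.83 that were far apart. More common were pairs such as R02-00946R_S1 and its common probe, where the variant probe from a green shoot clone had 9.06 and 9.06 in panicle, against 8.46 and 8.65 in shoot, and the common probe 13.83 and 13.72 in panicle, against 8.48 and 8.54 in shoot, a shift of -4.76 (SE 0.39). In R07-00446F_S2, also from a green shoot clone, the shift was -5.80 with 9.17 and 9.34 in panicle, against 10.31 and 9.87 in shoot, at the variant probe.

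**Figure D4:**
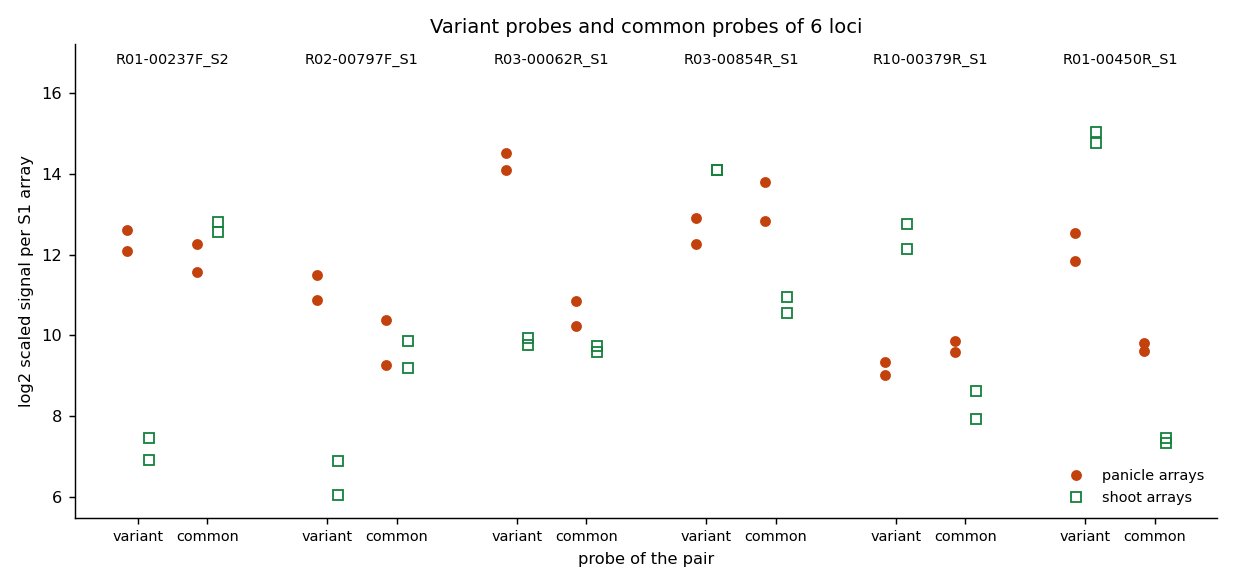
Log2 scaled signal of each S1 array (vertical axis) at the variant probe and the common probe of 6 loci (horizontal axis), with filled circles for panicle and open squares for shoot. In the 3 loci on the left the variant probe is higher in panicle and the common probe differs little, and in the 3 on the right the variant probe is lower in panicle and the common probe higher.

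The library of the clone behind a variant probe gave the following shares, as a description. Of SPEC probes named after green shoot clones, 11.2% of 616 were called higher in panicle and 13.5% lower. For panicle clones the shares were 15.7% and 8.57% of 490, and for callus clones 12.3% and 10.7% of 383. The variant minus common shift did not follow this order, with medians of -0.36 for panicle clones, -0.20 for callus clones and -0.19 for green shoot clones.

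The AK probes were on both designs, so they showed the same sequences in separate hybridizations. Of 1028 AK probes, 306 were called higher on S1 (29.8%) and 40 lower (3.89%). The lower share was 9.44% with the 75th percentile, 7.78% with quantile normalization and 12.7% with normexp. With median scaling all 346 had the same sign on S2, where 23 of the higher and 4 of the lower were called too. The differences on S1 and S2 correlated with r = 0.95 over these 1028 probes, a description over probes that share RNA sources. The probes called higher had a median difference of 1.64 on S1 and 1.41 on S2, and those called lower -1.72 and -1.79. Most AK probes are bright, and 69 of the 306 were at the cap or saturated on both panicle arrays and 22 of the 40 on both shoot arrays, so their differences are lower bounds.

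AK probes at the cap or saturated on both S1 arrays of the brighter tissue were left out of the ranking that follows. The leading higher AK probe was AK063584, with 15.60 and 16.02 in panicle, against 11.85 and 11.51 in shoot (difference 4.13, SE 0.45), and on S2 15.26 in panicle, against 11.31 and 11.70 in shoot (3.76). AK072758, from a panicle clone, had 16.09 and 15.94 in panicle, against 12.09 and 12.04 in shoot (3.96). AK072074, AK072559 and AK058876 differed by 4.05, 3.93 and 3.82. In all 5 the signal in root was higher than in shoot, with means of 14.92 to 16.61.

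On the lower side, AK066632, from a green shoot clone, had 14.15 and 14.44 in panicle, against 16.61 and 16.57 in shoot (-2.30), and AK109491 had 14.12 and 14.52 in panicle, against 16.38 and 16.61 in shoot (-2.18). On S2 these differed by -2.50 and -1.62, with shoot at the cap. AK073969, AK062772 and AK099877 differed by -1.93, -1.88 and -1.81 on S1.

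The study lists a few AK probes as short clones that may have lost internal sequence, with the domain that the missing stretch of the locus encodes. AK059443 is listed as lacking sequence for a B-box, a zinc finger of plant regulators that include light-signaling factors. It had 14.69 and 14.48 in panicle, against 16.61 and 16.61 in shoot. It was at least 4.07-fold lower in panicle (difference -2.02, SE 0.29, adjusted p = 0.000934 by limma), and on S2 it had 14.13 in panicle, against the cap in both shoot arrays (-2.48, adjusted p = 0.0461 by limma). Root (13.61) and callus (12.13) were lower still. AK058349, listed as lacking sequence for an AP2 domain, which binds DNA in a large family of plant transcription factors, was at the cap in both tissues on both designs and gave no difference to measure. AK058489, listed as lacking sequence for a mitochondrial carrier, a family that moves metabolites across the inner mitochondrial membrane, was at or near the cap in both tissues as well.

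The kinds of probe differed in how often and in which direction they were called. Beside the 16.5% called higher and 10.9% called lower of all S1 probes, COMM probes had 26.1% higher and 10.8% lower of 10157, E5 probes 20.3% and 10.2% of 5336, and END3TU probes 19.1% and 11.6% of 4192. SPEC probes had 12.7% higher and 11.4% lower of 1974. Probes of predicted gene models leaned to the shoot: END probes had 9.17% higher and 10.7% lower of 6371, and CDS probes 5.30% higher and 12.1% lower of 7810. The median difference was 0.67 for AK, 0.35 for COMM, 0.00 for E5, -0.13 for SPEC, -0.19 for END and -0.39 for CDS probes. With the 75th percentile as the scale, END3TU and SPEC probes were called lower more often than higher (17.9% against 17.6%, and 16.6% against 11.8%), and so were SPEC probes with quantile normalization (14.0% against 13.8%) and with the replicate block (18.8% against 18.3%), while AK and COMM probes kept more higher calls and CDS and END probes more lower calls under both and under normexp.

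This order went with signal. The median level was 15.0 for AK, 11.5 for COMM, 11.1 for E5, 10.6 for END3TU and 10.2 for SPEC probes, and 9.49 for END and 9.27 for CDS probes. Over all probes the median difference was -0.25 at levels of 9 to 10 and 0.54 at 15 to 16, and with normexp it was -0.09 and 0.22. The part of the level in the order of the classes was not tested.

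**Figure D5:**
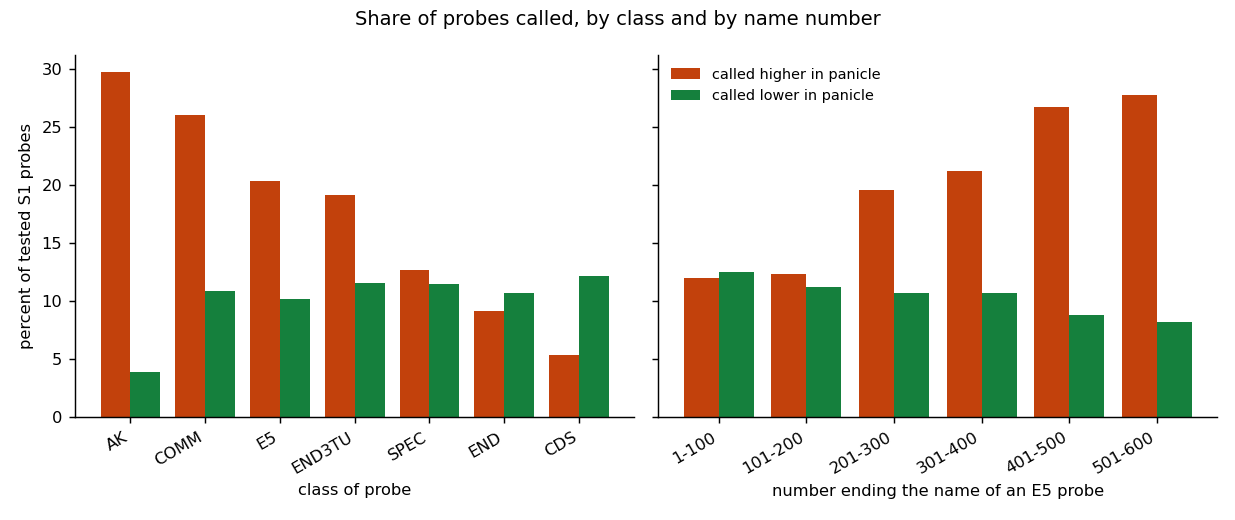
Percent of tested S1 probes called higher in panicle (orange) and lower in panicle (green) on the vertical axis, by class of probe (left, from 29.8% higher for AK to 5.30% for CDS) and by the number that ends the name of an E5 probe (right, from 12.0% higher at 1 to 100 to 27.8% at 501 to 600).

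Loci with several probes mostly gave calls in a single direction. Of 2532 loci with over 1 tested probe on S1, 224 had all probes called higher, 99 had all called lower, 1257 had none called and 44 (1.74%) had calls in both directions. COMM and E5 probes of a locus were called in the same direction in 379 (higher) and 126 (lower) of 2619 pairs and in opposite directions in 14. For COMM and SPEC probes the numbers were 69, 49 and 10 of 940 pairs.

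Calls were spread over the chromosomes. Among probes with a chromosome in the name, the share called higher ran from 18.8% on chromosome 12 to 25.6% on chromosome 5, and the share called lower from 9.29% on chromosome 5 to 13.3% on chromosome 8. Next to a COMM locus called higher, the next COMM locus on the strand was called higher in 27.3% of 2644 cases, against 25.5% of 6392 cases after a locus that was not called. For lower calls the shares were 12.7% of 1097 and 10.5% of 6392.

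The longest run of COMM loci called higher had 8 loci, R04-00536R to R04-00560R, with differences of 1.28 to 4.59. Of the S1 variant probes in this stretch, R04-00543R_S1 was called higher (1.63). R04-00547R_S1 (-1.23) and R04-00540R_S1 (-0.66) were not called. Among the loci of the run, R04-00537R_C led with 15.73 and 16.09 in panicle, against 11.35 and 11.28 in shoot. The loci numbered between them that were measured on S2 had 15 probes with differences of -3.24 to 2.31 and no call, on a design where 2.35% of all probes were called higher. Runs of 6 loci were found at R06-00049F to R06-00063F and R11-00498F to R11-00507F. In the stretch on chromosome 6 no E5 probe of S1 (-0.75 to 0.28) and no S2 probe (-1.30 to 2.34) was called. In the run on chromosome 11 a locus measured on S2, R11-00501F, was called lower (-4.57). There the S1 E5 probes of R11-00504F had -0.83 to -0.89 and were not called. Those of R11-00507F had 1.39 to 2.55, and all but E5_00964 were called higher.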

How the data were processed

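Each array was hybridized with Cy3-labeled and Cy5-labeled RNA of 1 sample. The deposited files hold intensity values per probe that the authors obtained with Agilent Feature Extraction (8.1.1.1 per the file headers, 7.5 per the labels), corrected for background and dye, and other values, the flags for signals well above background or saturated, per the file headers. Arrays have no read depth, and precision is limited by how few there are. Control spots were left out, which left 42034 probes per design. The processed intensities were scaled to a median of 1000 per channel, capped at 100000 and averaged over channels as log2. Probes well above background in both channels on every array of at least 1 group were fitted with limma 3.58.1 (R 4.3.3) on all arrays of a design, since the groups then share 1 estimate of spread, with Benjamini-Hochberg adjustment over all probes tested. Variant minus common probe differences were fitted in the same way, without pairs at the cap. In a simulation of the S1 comparison, 200 of 36814 probes were changed and the others were not. There, 3% of changes of 2-fold and 47% of changes of 4-fold were recovered, with 4 false calls. In the data 27.4% of the probes were called, and the adjustment depends on that share. These rates of recovery therefore do not carry over to the data.

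Named probes were the 10 with the largest absolute difference per direction among called probes detected on all 4 S1 arrays and not at the cap throughout the brighter tissue, 1 per locus, the 5 with the largest bound among those not detected in the dimmer tissue, 3 per direction on S2 and 5 AK probes per direction. Other loci were chosen after their values were seen. The members and lists were chosen with earlier results of these data known. Gene lists and cell type markers could not be applied, since 0 of 166080 array identifiers were in the reference table. Probe sequences are not printed here. Same-numbered panicle and shoot arrays of S1 deviated together (r = 0.28, and 0.11 to 0.64 over all pairs of groups), so the number was also fitted as a block.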

Additional observations from a re-analysis of the deposited data

How the results depend on the processing

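The S1 count of 10116 calls moved to 15184 with the replicate block, to 16007 (8149 higher, 7858 lower) with the block and quantile normalization, and to 5368 to 5912 when a panicle or shoot array was left out. It stayed within 1.5 times under the other alternatives, and no probe called under any alternative was called in the opposite direction. The S2 count of 1438 moved to 2509 with the 75th percentile, 2527 with quantile normalization, 3695 with normexp, 7458 with the replicate block, 8055 with the block and quantile normalization, 2880 with scan date as a block and 89 to 140 without a shoot array. With only panicle and shoot arrays in the limma fit, 0 S2 probes were called, while 6166 had an unadjusted p below 0.05, since that fit rests on 3 arrays. Alternatives for the following results were added after the data had been seen. The AK probes called on S1 with the same sign on S2 numbered 346 with median scaling and 555 of 556 with normexp. The 169 variant calls became 289 with the block and 59 to 65 without an array. The probes detected in panicle alone (1754) became 2021 to 4041, and those in shoot alone (288) 377 to 1099, without an array. Of the 6 probes named from S2, 1 lost its call without shoot replicate 1 and 2 without shoot replicate 2, and the block changed no call of these 6 or of the 30 named from S1. The cause of these shifts was not tested. The alternatives planned for gene lists were not run, since probes have no gene. Values at the cap or below background limit the size of the largest differences.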
